A study of Rattus norvegicus with 22 samples.

Results

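Glucose is rebuilt from lactate, glutamine and glycerol by a short set of enzymes that bypass the irreversible steps of glycolysis, and 6 genes of this set were followed here in rat kidney RNA sequencing data. They were listed by name, with no cutoff on a measured value: Pc, Pck1, Pck2, Fbp1, G6pc1 and Slc37a4. They are 6 of the 17334 genes listed by rat Entrez identifier, and all 6 were among the 12867 genes with enough counts to be tested. The kidney makes glucose in the proximal tubule, chiefly from glutamine and lactate, and output rises in fasting and acidosis. Pyruvate carboxylase (Pc) and the phosphoenolpyruvate carboxykinases (Pck1 in the cytosol, Pck2 in mitochondria) turn pyruvate into phosphoenolpyruvate. Fructose-1,6-bisphosphatase (Fbp1) opposes phosphofructokinase, and glucose-6-phosphatase (G6pc1), fed by the glucose-6-phosphate translocase Slc37a4, releases free glucose.

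The RNA came from the left kidney of 22 male PKD/Mhm (Cy/+) rats killed at 8 months of age. The strain carries the Cy allele in the heterozygous state and develops cystic kidneys. Untreated rats (n = 6) were set against rats that received human adipose-derived stromal cells (ASC) into the peritoneum (i.p. ASC, n = 6) or a vein (i.v. ASC, n = 6), or the medium conditioned by such cells (ASC-derived CM, n = 4), monthly for 6 months. All groups share the strain and the Cy/+ genotype, and a group without cysts was not analysed here. In bulk tissue, fewer cells of a type and less RNA per cell cannot be told apart.

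Total estimated counts ran from 12195682 to 14734772 per rat. The labels name no batch. The proximal tubule was well represented, with the phosphate cotransporter Slc34a1 of its brush border between 227.5 and 1405 TPM, a count scaled for transcript length and library total, and the 10 proximal tubule markers together between 1085 and 5747 TPM. Liver, the other gluconeogenic organ, was at or near 0 by its defining markers: Alb did not exceed 0.107 TPM, Tat 0.176 TPM and Cps1 0.26 TPM in any rat. Cyp2e1, which the proximal tubule also makes, was at 30.7 to 224.6 TPM. Urothelial genes stood apart in the i.v. ASC group, where 5 urothelial markers summed to between 2.38 and 541.9 TPM against 1.94 to 16.4 TPM in all other rats. Upk1b was highest in i.v. ASC rat 1, at 31.0 TPM, and i.v. ASC rat 3, at 46.9 TPM, and fold changes of the i.v. ASC group are given with and without these rats. Upk1b in i.v. ASC rats 5 (9.43 TPM) and 4 (2.68 TPM) was also above all rats of the other groups, and these rats were kept. Rats 1 and 3 also had the highest Slc34a1 of the i.v. ASC group, at 1405 and 849.3 TPM. Their omission therefore lowers urothelial and proximal tubule levels together.

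The 6 genes were expressed at unequal levels and varied between rats to very different degrees. On the TPM scale, which corrects for transcript length, the mean over the 22 rats was 288.1 for Fbp1, 193.1 for Pck1, 99.7 for Slc37a4, 57.2 for G6pc1, 55.7 for Pc and 45.9 for Pck2. Fbp1 was above Pck1 in 19 of 22 rats, Pck1 above Slc37a4 in 19, and Slc37a4 above G6pc1 in 21. The lowest ranks were not separated, since G6pc1 was above Pc in only 12 of 22 rats and Pc above Pck2 in 14. Pck1 spanned a 9.28-fold range over the rats, Fbp1 5.99-fold, G6pc1 5.56-fold and Pc 4.40-fold. Slc37a4 spanned 1.90-fold and Pck2 only 1.40-fold. The coefficient of variation of Pck1 (54.3%) lay at the 94.5th percentile of all genes tested and that of Pck2 (9.56%) at the 13.4th.

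The promoters of the variable members Pck1, G6pc1 and Fbp1 and of the steady Pck2 are shown because these genes share a pathway but not a pattern over the rats. Each sequence is RefSeq's for the assembly GRCr8, 250 bases before to 50 after the transcript start. Of the 6 genes 5 had an entry, all but Pc, and the entries of Slc37a4 are not shown. Capitals mark exact matches, on either strand, to the letters CGTCA (core of the cAMP response element), GTTAAT, CAAAGTCCA (core of the HNF4 site), AGGTCA (nuclear receptor element), GTAAACA (forkhead), TATAAA or CCAAT. The first is Pck1 (chr3:182348322-182348621, plus strand), the second G6pc1 (chr10:86807409-86807708, plus strand), the third Fbp1 (chr17:2213457-2213756, plus strand) and the last Pck2 (chr15:32997603-32997902, plus strand).
Pck1: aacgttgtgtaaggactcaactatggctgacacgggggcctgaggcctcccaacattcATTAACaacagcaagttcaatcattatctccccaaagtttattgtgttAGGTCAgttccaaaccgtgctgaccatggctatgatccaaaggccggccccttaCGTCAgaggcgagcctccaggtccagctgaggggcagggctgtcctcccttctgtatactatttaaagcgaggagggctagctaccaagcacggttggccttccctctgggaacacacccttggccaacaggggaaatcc
G6pc1: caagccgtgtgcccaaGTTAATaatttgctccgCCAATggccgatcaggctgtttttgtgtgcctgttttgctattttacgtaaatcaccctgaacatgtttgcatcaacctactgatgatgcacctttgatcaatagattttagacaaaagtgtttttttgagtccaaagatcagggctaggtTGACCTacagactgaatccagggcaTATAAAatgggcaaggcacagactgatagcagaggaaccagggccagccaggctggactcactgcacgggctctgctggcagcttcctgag
Fbp1: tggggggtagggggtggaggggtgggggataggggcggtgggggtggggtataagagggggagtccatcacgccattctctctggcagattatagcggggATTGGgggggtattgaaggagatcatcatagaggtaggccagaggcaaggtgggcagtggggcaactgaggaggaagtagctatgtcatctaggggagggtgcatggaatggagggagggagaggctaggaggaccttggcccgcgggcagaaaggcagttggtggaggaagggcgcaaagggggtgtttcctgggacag
Pck2: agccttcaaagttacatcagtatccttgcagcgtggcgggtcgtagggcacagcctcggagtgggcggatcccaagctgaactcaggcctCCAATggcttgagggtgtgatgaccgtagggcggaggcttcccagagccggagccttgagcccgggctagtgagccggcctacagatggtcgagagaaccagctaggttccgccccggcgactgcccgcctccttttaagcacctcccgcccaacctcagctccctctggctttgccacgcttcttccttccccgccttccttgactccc

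The Pck1 window held CGTCA at positions -90 to -86 from the start, AGGTCA at -144 to -139 and GTTAAT, read on the minus strand, at -192 to -187. The G6pc1 window held GTTAAT at -234 to -229, CCAAT at -217 to -213, AGGTCA on the minus strand at -66 to -61 and TATAAA at -41 to -36. In Fbp1 and Pck2 the only matches were 1 CCAAT each, at -150 to -146 on the minus strand and at -160 to -156. The windows of Slc37a4 also held CGTCA, and no other of these letters. Of the 33469 rat promoters of this length, 21.2% held CGTCA, 7.45% GTTAAT, 16.2% AGGTCA, 14.2% TATAAA, 37.5% CCAAT, 3.78% GTAAACA and 0.391% CAAAGTCCA. A match is a description of letters and not of a bound site, and its bearing on the patterns over the rats was not tested. The letters GTTAAT were shared by Pck1 and G6pc1, and the window of Slc34a1 held them at 2 places.

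Whether ASC or ASC-derived CM changed the pathway was asked first of its entry steps. Pc, which makes oxaloacetate from pyruvate, ran from 24.2 to 58.9 TPM in untreated rats (median 50.1), from 26.1 to 103.9 (median 56.1) after i.p. ASC and from 34.3 to 106.7 (median 48.9) after i.v. ASC. After ASC-derived CM it was at 86.9, 51.5, 51.3 and 72.8 TPM. The highest Pc levels were in treated rats, yet all groups overlapped. Its log2 fold change against untreated rats was 0.51 ± 0.35 (SE) after i.p. ASC, 0.48 ± 0.35 after i.v. ASC and 0.64 ± 0.39 after ASC-derived CM. The quasi-likelihood test of edgeR gave Benjamini-Hochberg adjusted p-values of 0.771, 0.574 and 0.743. Without i.v. ASC rats 1 and 3 the i.v. difference was -0.0011.

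Pck1, the cytosolic carboxykinase whose mRNA is under hormonal control, was at 72.0 to 325.2 TPM in untreated rats (median 158.3). It was at 45.9 to 355.6 TPM after i.p. ASC (median 186.4) and at 85.0 to 288.7 TPM after i.v. ASC (median 173.3). The 4 rats given ASC-derived CM had 272.7, 116.7, 174.9 and 426.3 TPM. No group stood apart, and the lowest value of all was in i.p. ASC rat 2. The log2 fold changes were 0.27 ± 0.48 (95% interval -0.73 to 1.26), 0.12 ± 0.48 (-0.87 to 1.12) and 0.58 ± 0.53 (-0.52 to 1.68) in the order i.p. ASC, i.v. ASC and ASC-derived CM. The adjusted p in edgeR was 0.895, 0.925 and 0.871, so none passed, and the intervals are wide. Without i.v. ASC rats 1 and 3 the i.v. value was -0.32 ± 0.53. Without untreated rat 4 the i.p. value was 0.55.

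Pck2, the mitochondrial carboxykinase, was between 39.9 and 56.1 TPM in every rat. Its log2 fold changes were -0.02 ± 0.06, 0.01 ± 0.06 and -0.05 ± 0.07, and the 95% intervals of all 3 lay between -0.19 and 0.13. For this gene the data bound any difference between treated and untreated rats closely, unlike for Pck1. Mean TPM was 48.4 in untreated rats, 45.1 after i.p. ASC, 45.1 after i.v. ASC and 44.8 after ASC-derived CM, lower in every treated group. On the TPM scale the i.v. difference took the other sign, at -0.10. It was 0.02 ± 0.07 without rats 1 and 3 of that group.

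Fbp1 showed the largest differences of the 6 genes. It was at 104.8 to 280.1 TPM in untreated rats (median 194.9), 122.5 to 611.6 TPM after i.p. ASC (median 265.5) and 149.5 to 628 TPM after i.v. ASC (median 243.5). After ASC-derived CM it was at 514.8, 300.8, 245.7 and 387.2 TPM, so that 3 of these 4 rats were above every untreated rat and 1 was within their range. The log2 fold change was 0.78 ± 0.43 after i.p. ASC, 0.67 ± 0.42 after i.v. ASC and 0.93 ± 0.47 after ASC-derived CM (edgeR's adjusted p 0.771, 0.539 and 0.711). With all 16 treated rats set against the untreated ones it was 0.79 ± 0.37, with an unadjusted p of 0.0427 and an adjusted p of 0.477 in edgeR's quasi-likelihood test. The i.v. value fell to 0.12 ± 0.44 without i.v. ASC rats 1 and 3, and the i.p. value was 0.42 without i.p. ASC rat 1.

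G6pc1, the catalytic subunit that frees glucose in the endoplasmic reticulum, had no common direction over the groups. It was at 30.9 to 108.6 TPM in untreated rats (median 59.6), 25.2 to 81.1 TPM after i.p. ASC (median 56.8) and 28.5 to 63.5 TPM after i.v. ASC (median 44.1). After ASC-derived CM the 4 rats had 37.1, 29.8, 67.9 and 139.8 TPM, which includes the highest value of all rats. Log2 fold changes were -0.03 ± 0.34, -0.33 ± 0.35 and 0.19 ± 0.38, with adjusted p-values of 0.987, 0.679 and 0.963 (edgeR). The ASC-derived CM value was -0.40 without ASC-derived CM rat 4, and the i.v. value was -0.36 ± 0.40 without rats 1 and 3 of that group.

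Slc37a4, which carries glucose-6-phosphate to G6pc1 and is made in many tissues, was at 73.7 to 109.9 TPM in untreated rats, 73.6 to 140.0 TPM after i.p. ASC and 75.4 to 136.0 TPM after i.v. ASC. After ASC-derived CM the levels were 125.8, 96.9, 88.5 and 119.0 TPM. Its log2 fold changes were 0.24 ± 0.20, 0.12 ± 0.20 and 0.26 ± 0.22, for which edgeR's adjusted p was 0.786, 0.806 and 0.845, and every group overlapped the untreated one. The i.v. value was -0.01 on the TPM scale and -0.11 ± 0.21 without rats 1 and 3 of that group.

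**Figure D1:**
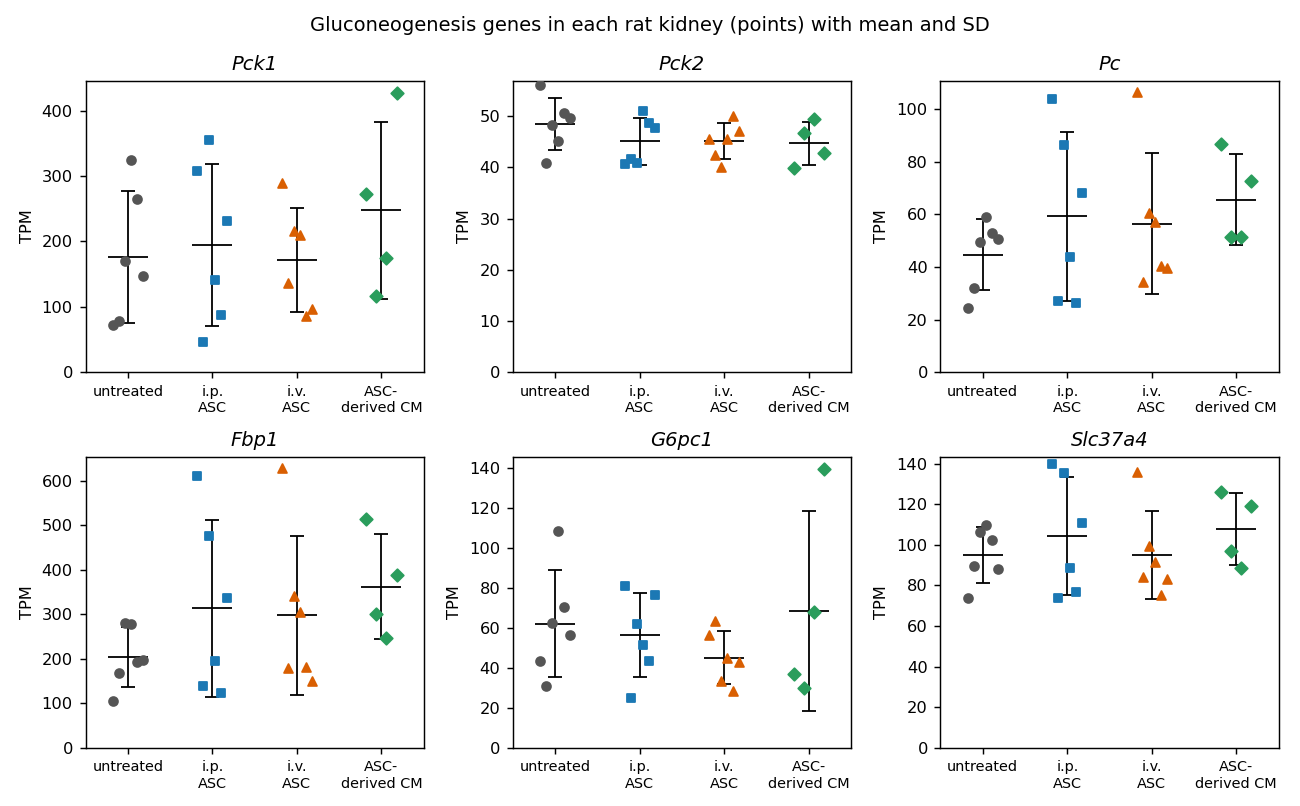
TPM of the 6 gluconeogenesis genes (y axes, from 0) in each of the 22 rats (points), by treatment group, with the group mean and SD as bars. Every treated group overlaps the untreated group for every gene, Pck2 stays between 39.9 and 56.1 TPM, and Fbp1 reaches 628 TPM in a treated rat against at most 280.1 TPM in untreated rats.

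None of the 6 genes passed the adjusted threshold of 0.05 in any of the 4 comparisons, and neither did any other gene. edgeR called 0 of 12867 genes (percent called 0) after i.p. ASC, i.v. ASC, ASC-derived CM and in all treated rats together. At an unadjusted p under 0.05 it had 500, 1133, 849 and 1317 genes (3.89%, 8.81%, 6.6% and 10.2%), of which 0, 0, 0 and 1 were among the 6. DESeq2 called 0, 28, 4 and 0 genes, again none of the 6. The median log2 fold change of the 6 was 0.25, 0.12 and 0.42 in the single comparisons, beside medians of -0.01, -0.01 and -0.00293 over all genes tested. The 3 comparisons share the same 6 untreated rats.

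The differences of Pc, Pck1, Fbp1 and Slc37a4 in all treated rats became smaller once the level of Slc34a1 in the same kidneys was taken into account. Slc34a1 itself differed from untreated rats by 0.38 ± 0.40, 0.23 ± 0.40 and 0.58 ± 0.44 on the log2 scale, with adjusted p-values of 0.824, 0.823 and 0.833 (edgeR). With its log2 TPM as a covariate, the difference between all treated and untreated rats was -0.04 ± 0.18 for Pck1, against 0.32 ± 0.41 without it. For Pc it was 0.21 ± 0.11 against 0.55 ± 0.30, for Fbp1 0.35 ± 0.18 against 0.79 ± 0.37 and for Slc37a4 0.05 ± 0.10 against 0.21 ± 0.17. The standard errors of these 4 genes fell along with the differences, while the values were -0.21 ± 0.23 against -0.06 ± 0.29 for G6pc1 and 0.0032 ± 0.05 against -0.02 ± 0.05 for Pck2. Again 0 genes passed, and the smallest adjusted p among the 6 was 0.495 in edgeR, for Fbp1 and Pc after i.v. ASC. The covariate was measured after treatment, so what it removes cannot be told apart from an effect of treatment on the tubule.

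**Figure D2:**
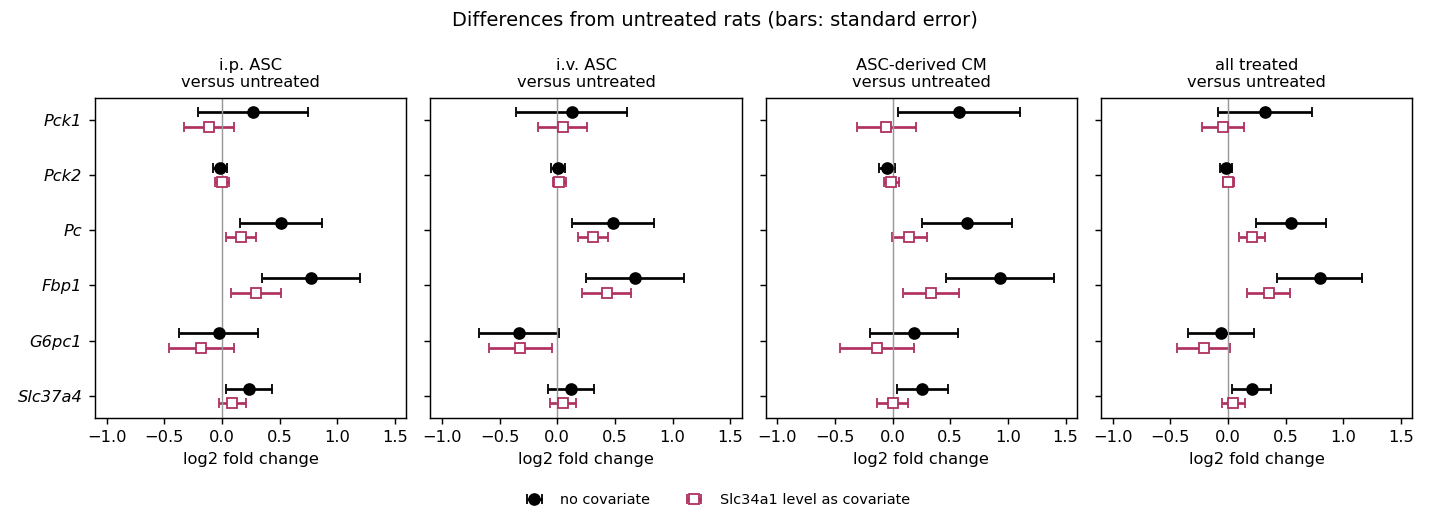
Log2 fold change against untreated rats (x axes) of each gene in the 4 comparisons, with bars of 1 standard error. Filled circles are the values without a covariate and open squares those with the log2 TPM of Slc34a1 in the fit, which bring Pck1 from 0.32 to -0.04 and Fbp1 from 0.79 to 0.35 in all treated rats together.

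Of the 6 genes, 4 followed Slc34a1 closely from rat to rat, G6pc1 loosely and Pck2 not at all in the same direction. Over the 22 rats Pearson's r of log2(TPM + 1) with Slc34a1 was 0.949 for Pc (Spearman's rho 0.959), 0.917 for Slc37a4 (0.935), 0.911 for Fbp1 (0.903) and 0.902 for Pck1 (0.937). Each had a two-sided permutation p of 1e-05, the smallest that 100000 permutations can give, and an adjusted p of 0.000557 over 12866 genes. Leaving out the 2 rats farthest from the median of Slc34a1 (untreated rat 1 and i.p. ASC rat 5) gave 0.936, 0.929, 0.884 and 0.916. It was of like size within groups, where these 4 genes had r of 0.905 to 0.963 among untreated rats, 0.917 to 0.988 after i.p. ASC and 0.928 to 0.974 after i.v. ASC (6 rats each). All levels come from the same libraries and share their composition.

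G6pc1 had r = 0.565 with Slc34a1 (rho 0.562, permutation p 0.00638 and 0.00772), and its adjusted p was 0.044 for Pearson's r and 0.0504 for Spearman's rho. It was 0.63 without the 2 farthest rats, 0.75 among untreated rats, 0.841 after i.p. ASC and 0.313 after i.v. ASC. Its call was lost in 15 of 22 fits with 1 rat left out. Pck2 had r = -0.457 (rho -0.474, permutation p 0.0321 and 0.0265, adjusted p 0.123 and 0.114), which shrank to -0.226 without the 2 farthest rats. With the adjusted threshold of 0.05, 5 of the 6 genes had a positive relation with Slc34a1 and 0 a negative one, where 9.02% of all genes tested had a positive and 6.7% a negative one.

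**Figure D3:**
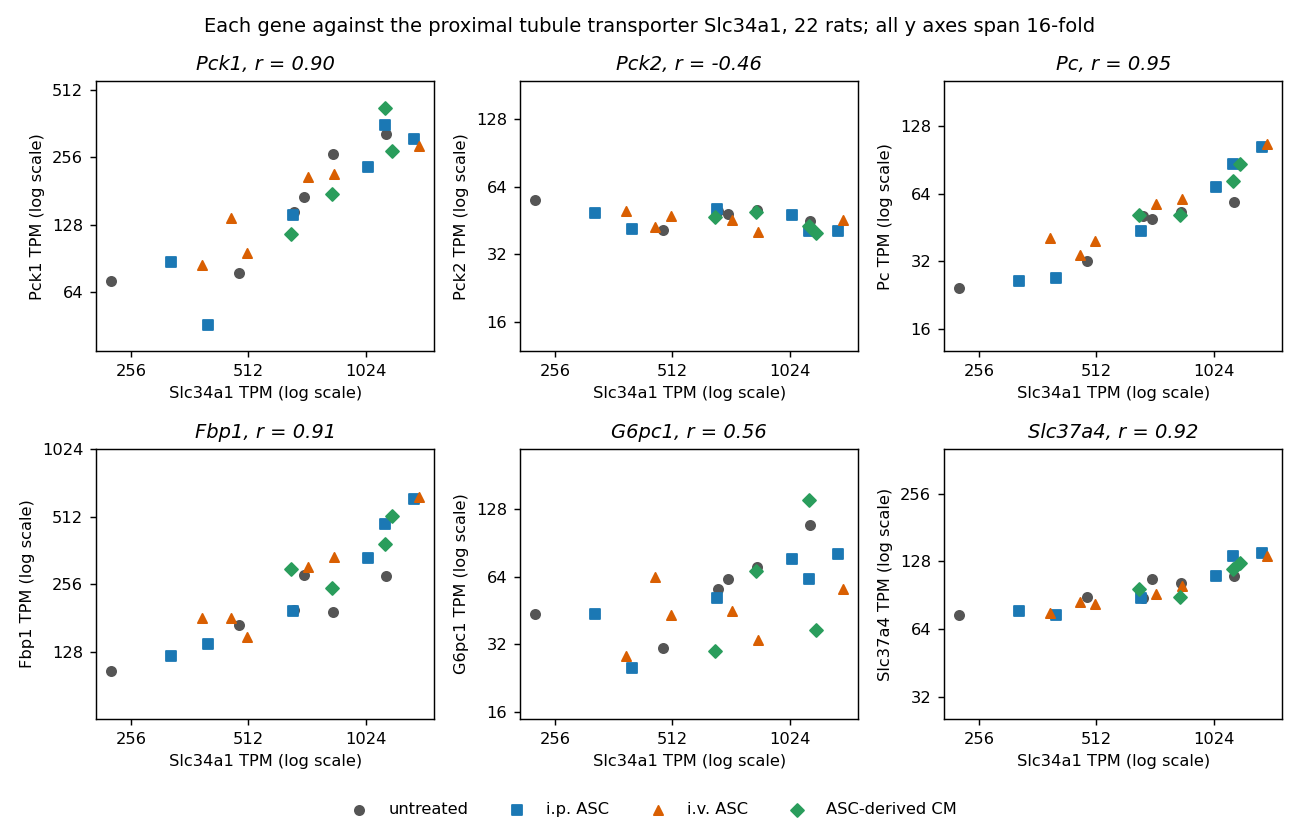
TPM of each gene (y axes) against TPM of Slc34a1 (x axes), both on log scales, in the 22 rats, with symbols by treatment group. All y axes span the same fold range. Pc (r = 0.949), Slc37a4, Fbp1 and Pck1 climb with Slc34a1 over the 22 rats, G6pc1 scatters and Pck2 (r = -0.457) varies little.

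The genes with the most similar profile over the 22 rats (Pearson's r of log2 CPM) differed by member. Those of Fbp1 included Acsm2 (0.988) and the flavin monooxygenase Fmo1 (0.985), and for Pc they were Fbp1 itself (0.983), the glyoxylate reductase Grhpr (0.979) and Dcxr (0.972). Slc37a4 had Neu1 (0.962), Acsm2 (0.962) and Tinag (0.961). Those of Pck1 included the dopa decarboxylase gene Ddc (0.908) and Slc34a1 (0.904). G6pc1 was nearest to other genes, the organic anion transporter Slc22a8 (0.934), Susd2 (0.913) and the fatty acid hydroxylase Cyp4a1 (0.89). For Pck2 the highest were Rabl2 (0.756), Maea (0.682) and Efcab11 (0.678).

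Within the set, Fbp1, Pc and Slc37a4 had the closest relations. Fbp1 and Pc had r = 0.967 (rho 0.964), Fbp1 and Slc37a4 0.933 (rho 0.909), each with a permutation p of 1e-05. Pck1 had r = 0.823 with Fbp1 and r = 0.739 with G6pc1, the latter with rho 0.709 and permutation p of 7e-05 and 0.00037. Fbp1 and G6pc1, successive bypass enzymes of 1 pathway, had only r = 0.372 (rho 0.373, permutation p 0.0885 and 0.0887, adjusted p 0.157 over all genes against Fbp1). Of the 12866 other genes, 1457 had a positive and 3646 a negative relation with Fbp1 past the threshold, against 82 and 6 with G6pc1.

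Fbp1 and G6pc1 parted along 2 of the 10 proximal tubule markers, Slc5a2 and Slc7a13, which mark different stretches of the tubule. Slc34a1, also among the 10, had a positive r with both Fbp1 and G6pc1. The relations of the other markers with Fbp1 and G6pc1 are not reported here. Slc5a2, the glucose transporter SGLT2, marks the early tubule in the cortex, and Slc7a13 marks its straight last segment at the border of the medulla. Slc5a2 ran from 14.8 to 147.7 TPM and Slc7a13 from 10.2 to 2308 TPM. They opposed each other over the rats (r = -0.727, rho -0.736, and r = -0.76 without the 2 rats farthest from the median of Slc5a2). This pair was chosen after the values were seen, so its relation is a description with no test. Fbp1 had r = 0.739 with Slc7a13 (adjusted p 0.000606 over all genes) and -0.326 with Slc5a2. G6pc1 had -0.255 with Slc7a13 and 0.674 with Slc5a2 (permutation p 0.00055, adjusted p 0.0655), short of the threshold. Pck1 had 0.335 and 0.127, with neither marker past it.

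Set against each other as ratios, these 4 genes gave a close relation, which was looked for because of the values above and is a description with no test. The ratio of Fbp1 to G6pc1 TPM was 2.4 in untreated rat 1, where Slc7a13 was 0.116 times Slc5a2, and 13.9 in ASC-derived CM rat 1, where it was 126 times Slc5a2. Over the 22 rats the log2 ratios had r = 0.956 (rho 0.966), and r = 0.953 without the 2 farthest rats. Among untreated, i.p. ASC and i.v. ASC rats alone r was 0.948, 0.972 and 0.968. The markers also differed with treatment in size, though not past the threshold. For all treated against untreated rats the log2 fold change was 2.08 ± 0.997 for Slc7a13 and -0.77 ± 0.37 for Slc5a2, each with an adjusted p of 0.477 (edgeR), beside the 0.79 of Fbp1. The methods give whole kidney tissue as the source of the RNA, and the part of these markers in the Fbp1 difference was not tested.

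**Figure D4:**
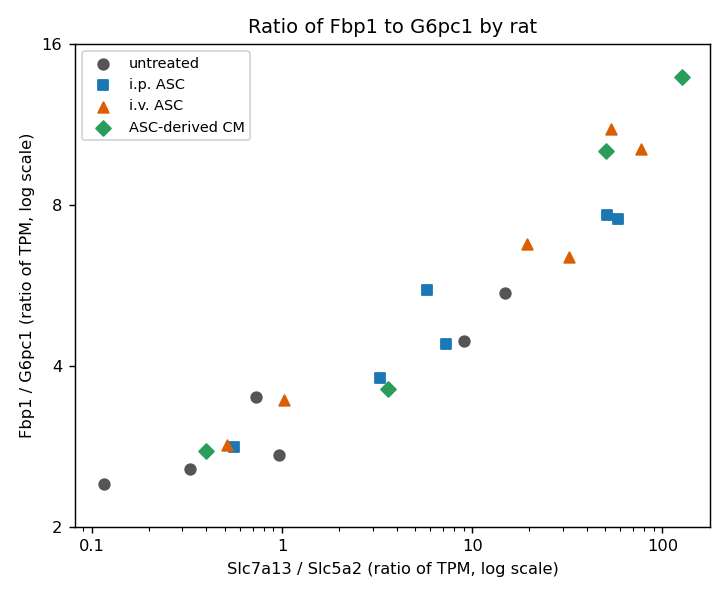
Ratio of Fbp1 to G6pc1 TPM (y axis, log scale) against the ratio of Slc7a13 to Slc5a2 TPM (x axis, log scale) in each of the 22 rats, with symbols by treatment group. The points rise along 1 band (r = 0.956) from 2.4 in an untreated rat to 13.9 in a rat given ASC-derived CM, and all groups lie in the band.

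The rest of the pathway was read from 6 lists, and in none of the 4 comparisons did a gene of any list pass edgeR's adjusted threshold. The lists held 12 steps shared with glycolysis, 12 tested genes of the opposing glycolytic steps, 17 of precursor entry and shuttles, 14 regulators, 4 glucose transporters and 2 isoenzymes. Against Slc34a1 they divided. Among the shared steps 1 of 12 passed, with a positive r, and Aldoa, an aldolase, had the lowest r (-0.526, adjusted p 0.0657). Among the opposing steps 2 were positive, Pfkfb4 (0.871) and the pyruvate kinase Pklr (0.7), and 2 negative, the hexokinase Hk2 (-0.642) and Pkm (-0.569).

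Precursor entry had the most relations, 7 positive and 1 negative of 17. Glycerol kinase (Gk, r = 0.871) was the highest and lactate dehydrogenase A (Ldha, -0.567) the lowest. Regulators had 2 positive of 14, among them the tubule transcription factor Hnf4a (0.805), and Irs1 had the lowest r, at -0.191. Glucose transporters had 1 of 4, Slc5a1 (0.601), with Slc2a1 lowest at -0.03. The isoenzymes had 0 of 2, with r of 0.023 for Fbp2, the muscle bisphosphatase, and -0.473 for G6pc3, the form made in most tissues. These shares are to be read beside the 9.02% and 6.7% of all genes. Of the other 9 proximal tubule markers 7 were positive. Slc5a2 and Slc5a12 were not, and the lowest r of these markers was -0.086. Of 4 injured tubule markers Lcn2 (-0.616), Vcam1 (-0.598) and Spp1 (-0.649) were negative.

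**Figure D5:**
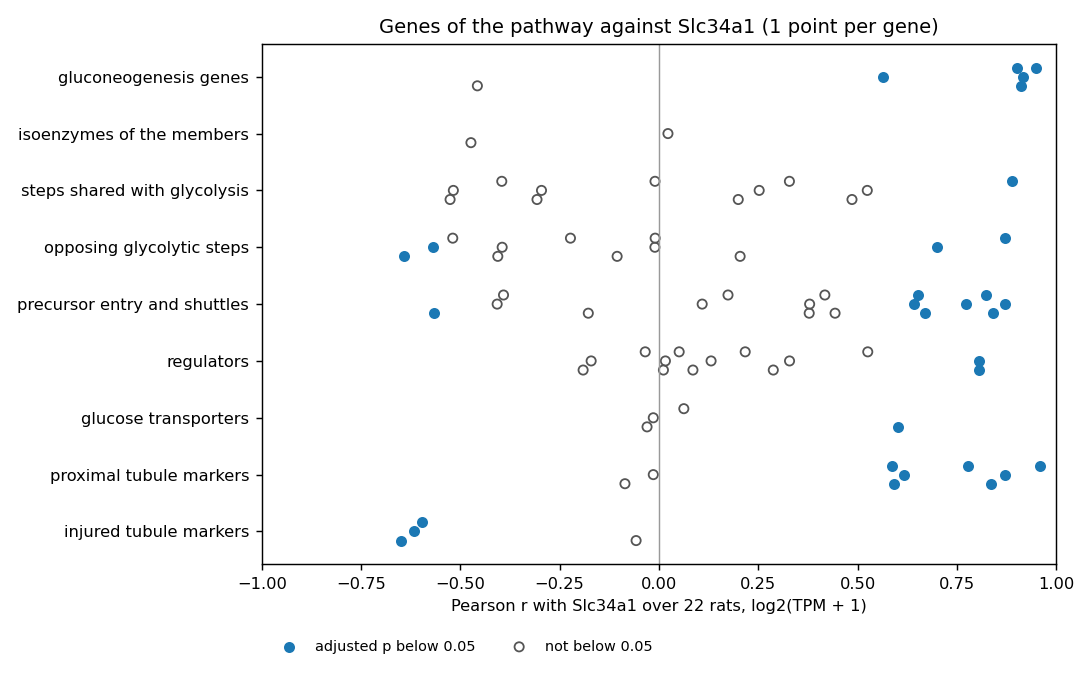
Pearson's r with Slc34a1 over the 22 rats (x axis) for each gene of the pathway and marker lists (rows), filled where the adjusted p was below 0.05. The gluconeogenesis genes apart from Pck2 (-0.457) lie on the right with 7 of 9 proximal tubule markers, all but Slc5a2 and Slc5a12. On the left past the threshold lie 3 of 4 injured tubule markers.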

How the data were processed

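Kidney RNA of 22 rats was grouped by the treatment label. The submitters' processing notes name Trim Galore 0.6.4, kallisto 0.4.6 and the genome build rn6. The authors deposited an estimated count per Entrez gene and rat, without normalization, and TPM, scaled by the authors for transcript length and total. Genes that share reads with a paralog, and overlapping genes, are uncertain. Counts were rounded (14.1% were not whole within 1e-06), and 17179 of 17334 identifiers were matched to symbols in RefSeq's GRCr8 table, used for names and promoters only.

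The 4 groups were fitted together with edgeR 4.0.16 in R 4.3.3 (TMM, filterByExpr, quasi-likelihood test, Benjamini-Hochberg adjustment over 12867 genes, threshold 0.05). Standard errors were derived from the log2 fold change and its F statistic. Levels between genes were compared in TPM. Relations over rats used log2(TPM + 1) with 100000 permutations, adjusted over all genes. Nothing says whether rats were littermates. The procedure was tested on simulated data. Alternatives were DESeq2 1.42.0, RLE size factors, other filters, only the groups compared in the fit, limma 3.58.1 on log2 TPM with pseudocounts of 1 and 0.1, Slc34a1 as a covariate, and the omission of each rat. The omission of i.v. ASC rats 1 and 3, the pair of Slc5a2 and Slc7a13 and the relation of ratios were chosen after seeing the data. The members and lists were chosen with earlier results of these data known. Named genes are the members, Slc34a1, their isoenzymes, the highest and lowest r of each pathway list, the 3 genes most like each member and the cell type markers. Genes outside this rule (Pklr and Pkm) were named after their values were seen because few genes of their list passed. Some genes that the rule names are not reported here. G6pc2, Slc25a12, Slc25a13 and Sirt1 were not analysed here.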

Additional observations from a re-analysis of the deposited data

How the results depend on the processing

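None of the 6 genes was called under any setting. Counts of genes called moved with DESeq2 to 28 after i.v. ASC and 4 after ASC-derived CM, and to 1 after ASC-derived CM with only the groups compared in the fit. With 1 rat left out, 0 to 14 genes were called after i.v. ASC (11 without i.v. ASC rat 2, 14 without i.v. ASC rat 6). The correlation of G6pc1 with Slc34a1 passed as Pearson's r but not as Spearman's rho (0.562), and with 1 rat left out it ran from 0.525 to 0.633. The correlations of the other 5 genes with Slc34a1 kept their side of the threshold in every setting run, and relations between other genes, apart from the ratios, were not rerun with a rat left out.

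Log2 fold changes changed sign as follows, none of them past the threshold, and the cause was not tested. With the Slc34a1 covariate Pck1 was -0.11 after i.p. ASC, -0.053 after ASC-derived CM and -0.040 in all treated rats, Pck2 0.0010 after i.p. ASC and 0.0032 in all treated rats, and G6pc1 -0.13 after ASC-derived CM. With limma on log2(TPM + 1), and on log2(TPM + 0.1), Pck2 was -0.098 and -0.099 and Slc37a4 -0.015 and -0.015 after i.v. ASC, and G6pc1 -0.016 and -0.018 after ASC-derived CM. Without i.v. ASC rats 1 and 3, Pck1 was -0.32, Pc -0.0011 and Slc37a4 -0.11 after i.v. ASC. With 1 rat left out, G6pc1 ran from -0.40 to 0.43 after ASC-derived CM, -0.25 to 0.18 in all treated rats and -0.19 to 0.21 after i.p. ASC. Pck1 ran from -0.0015 to 0.55 after i.p. ASC and -0.10 to 0.40 after i.v. ASC, and Slc37a4 from -0.021 to 0.19 after i.v. ASC. Pck2 ran from -0.076 to 0.00061 after ASC-derived CM, -0.039 to 0.030 in all treated rats, -0.037 to 0.032 after i.p. ASC and -0.013 to 0.058 after i.v. ASC. With no change of sign, Pc ran from 0.25 to 0.68 after i.p. ASC, 0.17 to 0.60 after i.v. ASC and 0.42 to 0.79 after ASC-derived CM, and Fbp1 from 0.42 to 0.96, 0.32 to 0.83 and 0.61 to 1.10. Slc37a4 ran from 0.11 to 0.33 after i.p. ASC and 0.11 to 0.38 after ASC-derived CM, Pck1 from 0.22 to 0.86 after ASC-derived CM and G6pc1 from -0.48 to -0.09 after i.v. ASC. The ratio relation ran from 0.952 to 0.96.

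No paired analysis was possible because each rat belongs to 1 group and the labels pair no rats across groups. With 4 to 6 rats a group, the standard errors of Pck1, Fbp1 and G6pc1 in the single comparisons were 0.34 to 0.53 on the log2 scale.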
